A study of Mus musculus with 3 samples.

Results

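Cluster 8 is a group of 1356 olfactory bulb (OB) nuclei that the authors' clustering placed apart from the other inhibitory neurons. Its members were taken from the cluster number listed for each nucleus, which gave 223 nuclei in mouse 1, 872 in mouse 2 and 261 in mouse 3, of 31703 retained nuclei in 22 clusters. They are described here against 7 other clusters of inhibitory neurons (0, 1, 3, 6, 7, 10 and 12), which with cluster 8 held 20745 nuclei. All 3 mice were adult C57Bl/6 animals, males by the study's methods, and formed 1 group with 1 library each. Each had received a retrograde adeno-associated virus, retroAAV-CAG-H2B-GFP, in the piriform cortex and the anterior olfactory nucleus, where OB projection axons end. Nuclei of the injected side were sorted for the nuclear GFP and a DNA dye before droplet sequencing. The sort was aimed at mitral and tufted cells, so the inhibitory nuclei are those that passed the gate and are not a census of the bulb, and the CAG promoter does not restrict GFP to a cell type.

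Inhibitory neurons far outnumber projection neurons in the OB. Periglomerular cells surround the glomeruli, where olfactory axons end, and granule cells lie deeper and contact mitral and tufted cells through reciprocal synapses. Both are born throughout life and release GABA, which Gad1 and Gad2 synthesize and Slc32a1 loads into vesicles. Calb1 encodes calbindin, a calcium-buffering protein that marks a class of periglomerular cells. Foxp2 is a forkhead transcription factor of several neuron types. Fam19a1 (now Tafa1) encodes a small secreted protein that binds neurexins, and Htr2c encodes the serotonin 2C receptor, which signals through Gq. These 4 genes were taken as the markers of the cluster.

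Together the 4 markers set cluster 8 apart from the 7 other clusters in every mouse, but few nuclei held all 4. The markers were chosen with earlier results of these data known, so their levels are a description and no test of the cluster. Levels are given as CPM, the UMIs (unique molecular identifiers, 1 per captured transcript) of a gene per 1000000 UMIs summed over the nuclei of a cluster in 1 mouse. Calb1 (ENSMUSG00000028222, GRCm38 chr4:15881264-15908064, plus strand) was at 108, 109.7 and 74.7 CPM in mice 1, 2 and 3, and no library of the 7 other clusters exceeded 9.42 CPM. Foxp2 (ENSMUSG00000029563, chr6:14901349-15441977, plus strand) was at 1636, 1898 and 1377 CPM, and the highest library elsewhere among these clusters held 148 CPM. In all 3 mice both genes lay above every library of the 7 other clusters.

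Fam19a1 and Htr2c were not steady. Fam19a1 (ENSMUSG00000059187, chr6:96113154-96657198, plus strand) was at 1277, 157 and 2529 CPM in mice 1, 2 and 3, against at most 13.2 CPM in any library of the other clusters. Htr2c (ENSMUSG00000041380, chrX:146962513-147197277, plus strand) was at 253, 72.0 and 414 CPM, and its highest other cluster, cluster 6, averaged 25.3 CPM and no other library exceeded 30.1 CPM. For both genes mouse 2, which gave the most nuclei, was the lowest and mouse 3 the highest.

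**Figure D1:**
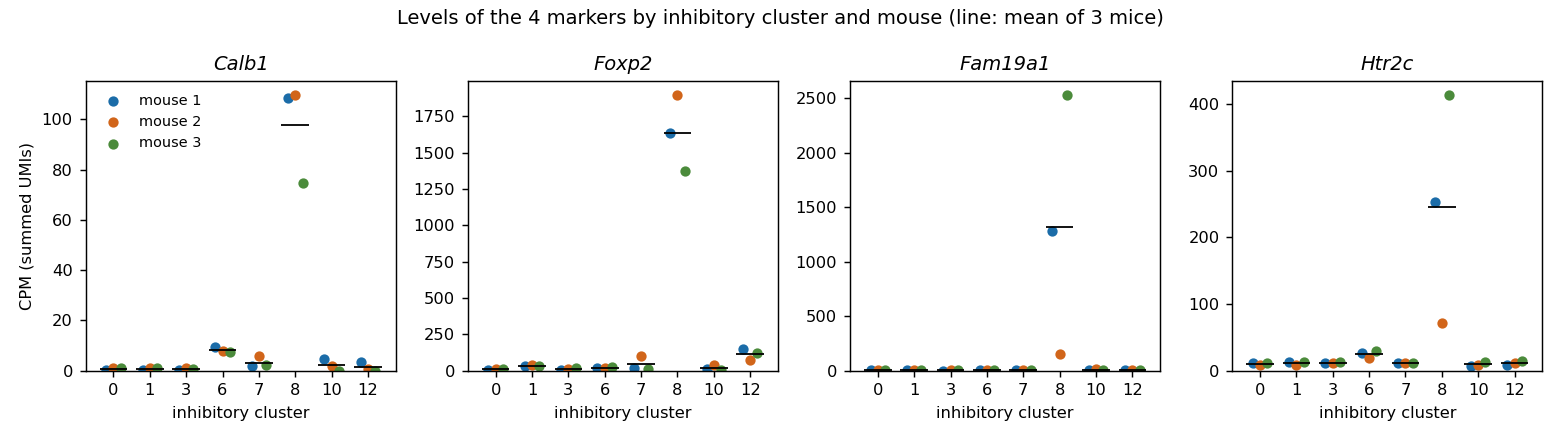
CPM of Calb1, Foxp2, Fam19a1 and Htr2c (y axes, linear) in each of the 8 inhibitory clusters (x axes), with 1 point per mouse and a line at the mean of 3 mice. Cluster 8 is highest in each panel, and the 3 mice lie close together for Calb1 and Foxp2 and far apart for Fam19a1 (157 to 2529 CPM) and Htr2c (72.0 to 414 CPM).

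The markers differed in how many cluster 8 nuclei they were found in. A UMI of Foxp2 was found in 81.4% ± 5.35 of them (SD, n = 3 mice), of Htr2c in 20.8% ± 8.81, of Calb1 in 20.4% ± 1.77 and of Fam19a1 in 12.8% ± 12.1. Free RNA also gives UMIs, and in microglia (cluster 20, median 3405 UMIs against 7376 in cluster 8) the same shares were 9.85%, 6.34%, 0.647% and 2.08%. In mouse 2 Fam19a1 was found in 3.33% of cluster 8 nuclei (29 of 872, exact 95% interval 2.24 to 4.74), which lies within the 2.29% to 4.81% of the other inhibitory clusters, although its level of 157 CPM there was above the 13.2 CPM of any other inhibitory library. With every nucleus thinned to 3000 UMIs, which left out 31 cluster 8 nuclei, the shares were 76.9% for Foxp2, 14.6% for Htr2c, 15.2% for Calb1 and 10.2% for Fam19a1. Only 5 nuclei held a UMI of all 4 markers, and 132 held none. Of the 266 nuclei with Calb1, 89.5% also had Foxp2 (84.4%, 94.5% and 79.3% in mice 1, 2 and 3), little above the 81.2%, 86.9% and 76.2% of all cluster 8 nuclei. Of the 117 with Fam19a1, 45.3% had Foxp2 and 73.5% had Htr2c.

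The label of an inhibitory neuron held for most, not all, of the cluster. Summed over 7 markers of inhibitory neurons, cluster 8 held 4405 CPM ± 897 (SD, n = 3), within the range of the 7 other clusters (4214 to 6306 CPM). The sum was 4420, 5295 and 3501 CPM in mice 1, 2 and 3, so that mouse 3 was below the lowest of those cluster means. Meis2, a homeobox gene, gave 2561 CPM of the 4405 CPM. Gad1 was at 601, 704 and 358 CPM, Gad2 at 317, 326 and 178 CPM and Slc32a1 at 197, 201 and 114 CPM in mice 1, 2 and 3, so that mouse 3 was lowest for each. The 6 projection neuron markers summed to 68.0, 84.0 and 166 CPM, against 40.0 to 83.3 CPM in the other inhibitory clusters and 957 CPM in cluster 14. Slc17a7, a vesicular glutamate transporter, was at 38.2, 31.5 and 99.6 CPM in mice 1, 2 and 3. The highest other inhibitory cluster, cluster 7, held 40.7, 29.5 and 39.4 CPM, so that mouse 3 alone was above the other libraries. Cdhr1 (20.6 CPM) and Eomes (8.84 CPM) of mitral and tufted cells lay within the range of the other clusters, and Tbx21 (2.61 CPM) slightly above its 1.85 CPM in cluster 10. Slc17a6, another vesicular glutamate transporter, was at 2.98, 10.7 and 20.6 CPM in mice 1, 2 and 3 against at most 10.5 CPM in any other inhibitory library, and Tbr1, a factor of glutamatergic neurons, at 4.97, 2.31 and 11.7 CPM against at most 3.396 CPM, so that mouse 3 was highest for both and mouse 2 was within the other libraries for Tbr1. The 9 periglomerular markers, Calb1 among them, summed to 738 CPM against 963 to 3484 CPM in the other clusters. Of the 738 CPM, 511 CPM was Cpne4, which clusters 0 and 1 held at 1387 and 2235 CPM. Th, the enzyme of dopamine synthesis, was at 10.8 CPM, and Calb2, calretinin, at 81.4 CPM against 44.0 to 2446 CPM. Slc18a2, a vesicular monoamine transporter, was at 12.2 CPM, above 6 of the 7 other clusters (3.12 to 7.27 CPM) and below cluster 6 (36.4 CPM). The 7 granule cell markers summed to 1519 CPM, within the 874 to 2463 CPM of the other clusters. The 7 markers of external plexiform or deep short-axon interneurons summed to 273, 136 and 35.5 CPM in mice 1, 2 and 3, against 61.4 to 442 CPM. Astrocyte markers summed to 85.8 CPM, oligodendrocyte markers to 64.5, microglia markers to 40.5 and endothelial and mural markers to 3.33 CPM, where the clusters richest in them held 4840, 21422, 3967 and 1411 CPM.

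Grouping the cluster 8 nuclei again, with 71 marker genes held out, gave 10 subgroups, each called here by its leading gene. The held-out genes, the 4 markers among them, took no part in the grouping, so their levels show how it divides them. The leading genes themselves chose the subgroups and are given as a description. The Nectin3 subgroup had 281 nuclei, Ccdc141 200, Cpa6 171, Gpc5 142, Chst9 127, Nxph1 119, Hmcn1 98, Parm1 92, Nfia 74 and Gpc3 52. Median depth ran from 4887 UMIs per nucleus in Chst9 to 23018.5 in Nfia.

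Shares of several subgroups differed between the mice beyond counting error. Nectin3 nuclei took 20.6%, 20.9% and 20.3% of cluster 8 in mice 1, 2 and 3, and Parm1 nuclei 7.62%, 6.54% and 6.90%, so these shares were even. Nfia nuclei numbered 15 of the 223 in mouse 1, a share of 6.73% with an exact 95% interval of 3.81 to 10.9. They numbered 10 of 872 in mouse 2, or 1.15% (0.551 to 2.10), and 49 of 261 in mouse 3, or 18.8% (14.2 to 24.05). Cpa6 nuclei took 4.93%, 17.3% and 3.45%. The Hmcn1 subgroup had no nucleus in mouse 1 (0 of 223, which allows a share of up to 1.35%) against 8.37% in mouse 2 and 9.58% in mouse 3. Intervals and limits cover counting error only, and whether the injection, the sort or the dissection set these shares was not tested.

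**Figure D2:**
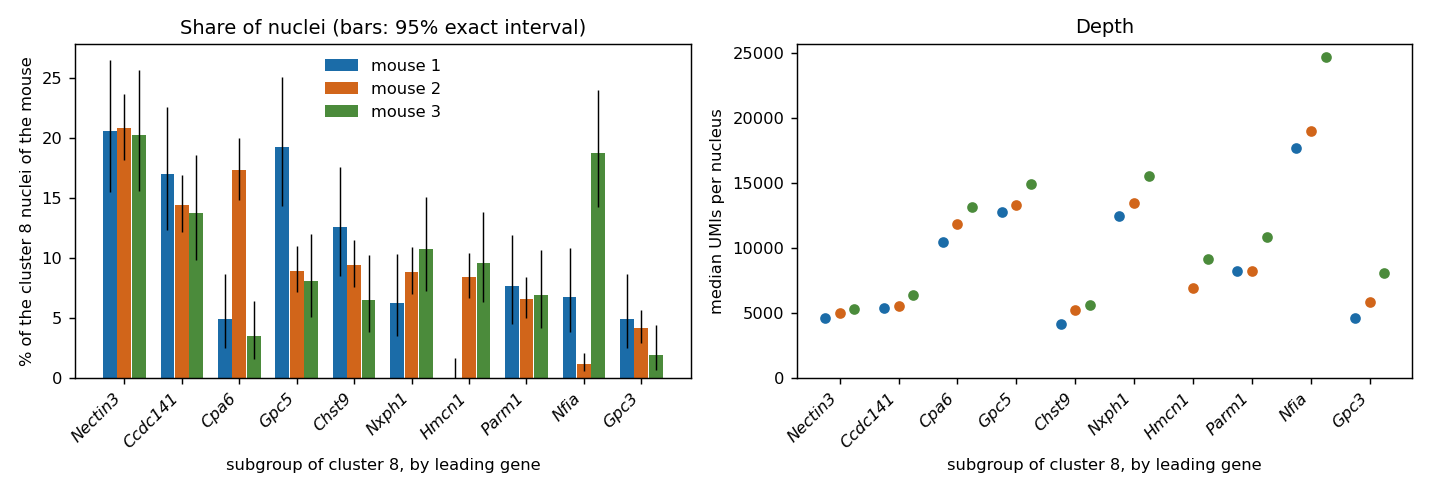
Left, share (%) of the cluster 8 nuclei of each mouse in each of 10 subgroups, with exact 95% intervals; right, median UMIs per nucleus of the same subgroups and mice. The Nfia subgroup runs from 1.15% in mouse 2 to 18.8% in mouse 3 and is the deepest in each mouse, and Hmcn1 has no bar or point in mouse 1.

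Calb1 was concentrated in a few subgroups. It was at 623 CPM in Chst9 nuclei (649, 615 and 623 CPM in mice 1, 2 and 3), at 454 CPM in Ccdc141 nuclei (480, 436 and 487 CPM) and at 113 CPM in Cpa6 nuclei. Of its 1333 UMIs the Chst9 nuclei held 31.7% (36.7%, 32.6% and 24.5% by mouse) and the Ccdc141 nuclei 40.7% (45.4%, 38.4% and 44.1%). Cpa6 nuclei held 5.05%, 24.8% and 4.21% in mice 1, 2 and 3, so that their 17.6% of all UMIs rested on mouse 2, and Nfia nuclei, at 41.7 CPM, held 8.72%, 0.234% and 21.8%. In Gpc5 nuclei no Calb1 UMI was found among 142 nuclei. Chst9 and Ccdc141 nuclei shared Reln, the secreted protein reelin (1645 and 1695 CPM), Zfp804b, Cbln2 and Vwc2l, and both were among the 4 subgroups with the highest Foxp2. Ccdc141 nuclei also led in Bdnf, a neurotrophin (335 CPM), and Robo1, a guidance receptor (4795 CPM).

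Foxp2 was broad without being general. It stood at 4336 CPM in Chst9, 4123 in Hmcn1, 4077 in Ccdc141 and 2255 in Nectin3 nuclei, between 1130 and 1526 CPM in Nxph1, Cpa6 and Gpc5 nuclei, and at 155 CPM in Gpc3, 84.7 CPM in Parm1 and 16.6 CPM in Nfia nuclei. Hmcn1 nuclei had Foxp2 at 3792 and 4905 CPM in mice 2 and 3 with Calb1 at 16.8 CPM in both mice pooled, so high Foxp2 was also found where Calb1 was low. In the series as a whole Foxp2 was not particular to cluster 8, since cluster 17 held 1276 CPM and cluster 18 held 512 CPM.

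Fam19a1 came chiefly from the Nfia subgroup, and Htr2c did so in 2 of the 3 mice. Of 12633 Fam19a1 UMIs in cluster 8, 98.0% lay in these 74 nuclei, where its level was 7869, 5693 and 6458 CPM in mice 1, 2 and 3. Of the Htr2c UMIs, 65.3% lay there (1228, 618 and 833 CPM), and most of the rest in Nxph1 nuclei (307 CPM) and Gpc5 nuclei (8.82%). By mouse the Nfia nuclei held 78.6%, 21.8% and 77.4% of them, and in mouse 2 the Nxph1 nuclei held the larger share (282 of 560 UMIs, against 122 in the Nfia nuclei). Within the Nfia subgroup both genes thus varied less between the mice than in the whole cluster, while the share of Nfia nuclei differed. These nuclei gave 16.2%, 2.54% and 38.5% of the cluster 8 UMIs of mice 1, 2 and 3.

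The held-out markers set the Nfia subgroup apart from the label. Gad1 was at 65.3 CPM there against 355 to 1117 CPM in the 9 other subgroups, Gad2 at 26.2 against 249 to 484, Slc32a1 at 13.9 against 114 to 327 and Dlx1, a factor of forebrain inhibitory neurons, at 10.2 against 68.5 to 457 CPM. Slc17a7 was at 179 CPM (120, 122 and 201 CPM in mice 1, 2 and 3) against at most 60.5 CPM, and Tbr1 at 21.9 against at most 6.38 CPM. Cdhr1, a protocadherin of mitral and tufted cells, was at 19.3 CPM, below the 325 CPM or more of clusters 2, 13 and 14. The 6 projection neuron markers summed to 257 CPM against 43.0 to 131 CPM in the other subgroups. The 6 markers of immature neurons summed to 2626 CPM against 456 to 2319 CPM. By mouse this sum was 2837, 2006 and 2665 CPM in mice 1, 2 and 3, so that mouse 2 lay within the range of the others. In cluster 8 as a whole, Robo2, a guidance receptor, gave 910 of the 1406 CPM of this list. Clusters 7, 10 and 12 held 1276, 1165 and 1133 CPM of Robo2, and whether the Nfia nuclei are immature was not tested. The 5 astrocyte markers summed to 151 CPM against 37.4 to 112 CPM in the other subgroups, chiefly from Slc1a2, a glutamate transporter (123 CPM, at 150.4, 116 and 117 CPM in mice 1, 2 and 3), while Aqp4 was at 1.07 CPM, and cluster 9 held 4840 CPM of the list. The 3 markers of oligodendrocyte precursors summed to 41.7 CPM, all of it Vcan, against 2.41 to 55.6 CPM, with no UMI of Pdgfra or Cspg4. The 5 oligodendrocyte markers summed to 17.7 CPM against 37.4 to 124 CPM, with no UMI of Mog, and the 5 microglia markers to 33.2 CPM against 21.5 to 61.9 CPM. The part of glial RNA in these levels was not tested. The subgroup's leading genes were Nfia, a nuclear factor I transcription factor (1684 CPM against a mean of 9.96 in the other subgroups), Abi3bp, Bmpr1b, a BMP receptor, Xylt1, Ndst3 and Ndst4, both heparan sulfate enzymes, Sv2b, a synaptic vesicle protein, and Slit2 and Slit3, secreted guidance ligands. These levels did not bear out an inhibitory neuron name for these 74 nuclei, and no other name is given to them. Possible doublets were taken as nuclei with at least 2 UMIs of Slc17a7, Slc17a6, Tbx21, Cdhr1 and Eomes together, or in the top 5% of cluster 8 by UMIs in their mouse. Of the 74 nuclei, 60 (81.1%) had at least 2 such UMIs, 18 were in the top 5%, and 60 met the rule in all. In the other subgroups 9.62% to 24.4% had at least 2 such UMIs, at lower median depth. Deeper nuclei meet this rule more easily, and whether the 60 are doublets was not tested.

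The sequences before the start sites of Fam19a1 and Htr2c are shown because both genes peaked in the subgroup led by the nuclear factor I gene Nfia. They are the 250 bases upstream of each start in RefSeq (GRCm38.p6), chr6:96112904-96113153 and chrX:146962263-146962512, both on the plus strand. They were searched on both strands for the nuclear factor I half-site TTGGC and the forkhead motif TGTTTAC, which do not overlap with each other, and matches are in capitals.
Fam19a1: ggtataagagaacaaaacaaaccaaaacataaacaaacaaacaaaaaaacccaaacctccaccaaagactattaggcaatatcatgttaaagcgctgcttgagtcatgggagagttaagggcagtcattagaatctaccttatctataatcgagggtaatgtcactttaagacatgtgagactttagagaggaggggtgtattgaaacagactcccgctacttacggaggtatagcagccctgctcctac
Htr2c: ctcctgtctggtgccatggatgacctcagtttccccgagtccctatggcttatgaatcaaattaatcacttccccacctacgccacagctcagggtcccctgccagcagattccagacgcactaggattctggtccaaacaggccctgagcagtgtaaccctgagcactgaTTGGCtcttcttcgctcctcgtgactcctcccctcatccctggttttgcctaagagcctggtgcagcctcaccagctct
The window of Htr2c held 1 half-site, starting 79 bases before the start site, and that of Fam19a1 held none. Of 32851 RefSeq windows of this length, 41.5% held the half-site and 3.17% the forkhead motif, which neither window held. A match of 5 letters is common and is a description only.

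**Figure D3:**
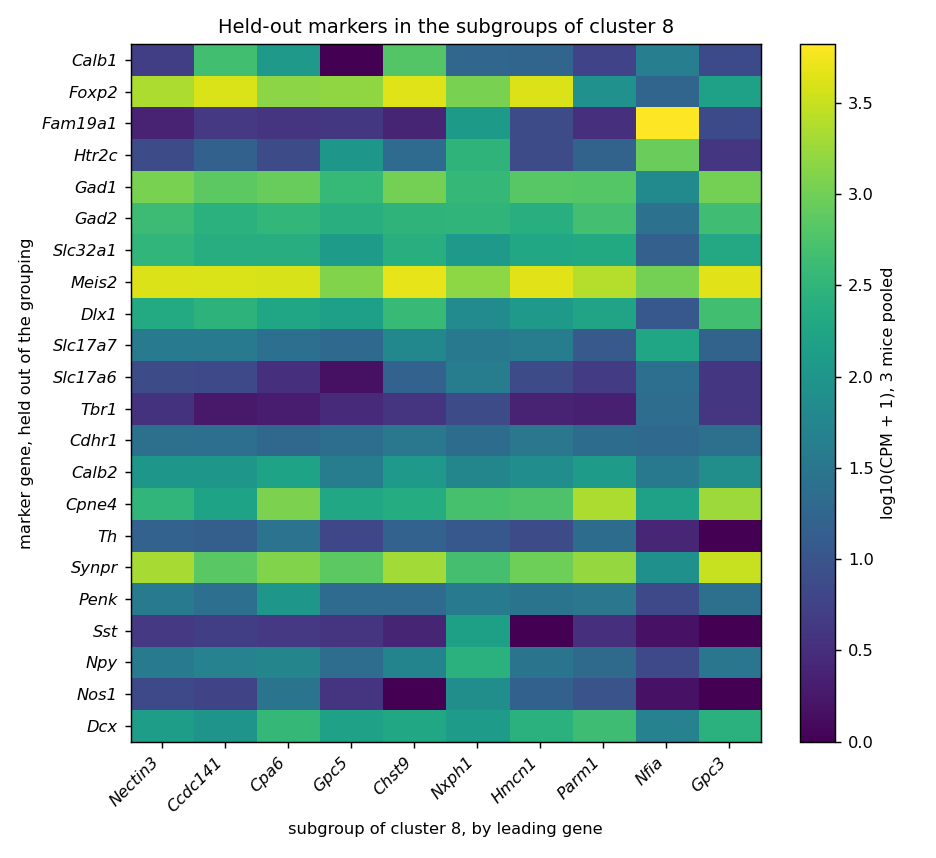
Levels of 22 marker genes held out of the grouping (rows, log10(CPM + 1), 3 mice pooled) in the 10 subgroups of cluster 8 (columns). Calb1 is bright in Chst9 and Ccdc141, Foxp2 in all but Parm1, Nfia and Gpc3, and Fam19a1 is brightest in Nfia, where Gad1, Gad2 and Slc32a1 are lowest.

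Other subgroups had leading genes of their own. Nxph1 nuclei held Sst, somatostatin (150 CPM against at most 4.18 in the other subgroups), Npy, neuropeptide Y (272 against at most 52.9 CPM), and Nos1, a nitric oxide synthase (77.0 against at most 28.4 CPM). Sst was found in 7.56% of them and was carried unevenly by the mice, at 655, 142 and 0 CPM in mice 1, 2 and 3, as was Npy at 1564, 185 and 25.5 CPM. Npy also reached 3646 CPM in cluster 11, and the part of free RNA in these values was not tested. Nxph1 nuclei led too in Alk, a receptor tyrosine kinase (930 CPM), and Sox6, a transcription factor (299 CPM). Parm1 nuclei were led by Parm1, Cadps2, a secretion priming protein (3528 CPM), Eya4 and Calca, which encodes CGRP (360 CPM). Cpne4, a copine held out of the grouping, was at 2224 CPM in Parm1 and 1823 CPM in Gpc3 nuclei against 154 to 1153 CPM elsewhere. Gpc3 nuclei held Kcnip4, a partner of A-type potassium channels, at 38472 CPM, and Cdh23 at 751 CPM. Gpc5 nuclei were led by Gpc5, Alcam, Fyb2 and Elavl2, and Nectin3 nuclei by Nectin3, Il1rapl2, Kcnj6, a GIRK channel subunit, and Chrna7. Cpa6 nuclei, with a median of 11890 UMIs, were led by Cpa6 (773 CPM), Myo16 (825), St6galnac3 (551), Htr1f (366) and Syt10 (152). Each was higher in another inhibitory cluster: Cpa6 (1549 CPM), Myo16 (1372) and St6galnac3 (955) in cluster 0, Htr1f (1764) in cluster 7 and Syt10 (539) in cluster 3. Whether these nuclei include doublets with other inhibitory neurons was not tested.

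Against the mean of the 7 other inhibitory clusters, 1198 of 14780 genes (8.11%) were called higher in cluster 8 and 402 (2.72%) lower. With the nuclei of the other clusters summed per mouse, so that large clusters weigh more, 1158 were higher and 722 lower. A call needed a log2 fold change above 1 in size and an adjusted p under 0.05 in a fit over 24 libraries (8 clusters of 3 mice), and it is used here as a measure of size against the spread between mice. Because the clusters were formed from the same counts, it is no test of the cluster, and no p is given. For 268 of the higher genes (1.81% of those tested) each of the 3 cluster 8 libraries lay above all 21 others, and for 28 of the lower genes (0.189%) below. Whether called or not, 323 genes (2.19%) lay above and 40 (0.271%) below. Since each value is set against a mean of 7 clusters, the highest single cluster is named where it matters. The SE given with a log2 fold change is derived from the fit, in which all 8 clusters share the estimate of spread. It does not show the spread of the 3 cluster 8 libraries, which for Fam19a1 ran from 157 to 2529 CPM.

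The leading higher genes, taken from called genes with at least 30 CPM and libraries apart from all others, divided between the Nfia subgroup and the rest. Fam19a1 led with a log2 fold change of 7.85 ± 0.31 (SE), followed by Bmpr1b at 6.35 ± 0.36, Foxp2 at 5.76 ± 0.25 and Calb1 at 5.65 ± 0.21. Next came Arhgef28, a guanine nucleotide exchange factor (5.52), Ndst4 (5.34), Vwc2l (5.30), Xylt1 (5.18), Cdh23 (4.85), Cadps2 (4.71), Zdbf2 (4.57) and Chl1, an adhesion molecule (4.54). Htr2c was at 4.26 ± 0.22. Without the Nfia nuclei the value fell to 2.27 for Fam19a1, 2.23 for Bmpr1b, 1.86 for Xylt1, 3.44 for Ndst4, 3.98 for Arhgef28, 3.74 for Chl1 and 2.77 for Htr2c, all still called. Fam19a1 was then at 4.74, 12.7 and 71.2 CPM in mice 1, 2 and 3 and Bmpr1b at 1.78, 16.5 and 7.91 CPM, so that both overlapped with the other inhibitory libraries (up to 13.2 and 8.91 CPM) and Fam19a1 lay above all of them in mouse 3 alone. It was 6.04 for Foxp2, 5.76 for Calb1, 5.55 for Vwc2l and 5.10 for Cdh23, so these genes did not rest on the Nfia nuclei. Bmpr1b was itself higher elsewhere in the series, at 409 CPM in cluster 4 against 164 CPM in cluster 8. So were Ndst4 (1275 CPM in cluster 14 against 615), Xylt1 (875 in cluster 19 against 207) and Arhgef28 (220 in cluster 19 against 79.1). Cdh23 (156 CPM in cluster 20 against 100.3), Zdbf2 (80.1 in cluster 13 against 35.0) and Chl1 (246 in cluster 9 against 91.3) were too. Fam19a1, Foxp2, Calb1, Vwc2l and Cadps2 were highest in cluster 8 by the mean of 3 mice. For Fam19a1 cluster 19 held 170 CPM, above the 157 CPM of cluster 8 in mouse 2. Without the Nfia nuclei cluster 8 averaged 29.5 CPM of Fam19a1, below clusters 19, 9 (126 CPM) and 4 (33.2 CPM).

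Leaving out the 74 nuclei gave 1087 higher (7.33%) and 475 lower genes (3.2%) of 14836 tested, of which 959 and 329 were those called with all nuclei. Of the 1198 higher genes, 143 had over 50% of their cluster 8 UMIs in the Nfia subgroup, and 38 of these were still called. Nfia itself went from 4.01 ± 0.32 to -1.14, Slit2 from 3.30 to -0.18 and Sv2b from 3.62 to 0.14. Levels of Nfia had the order of the share of its subgroup, at 351, 45.2 and 631 CPM in mice 1, 2 and 3, and mouse 2 was below the 240.2 CPM of cluster 7 even with all nuclei. Of the 268 genes above all other libraries, 237 remained called and above them.

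**Figure D4:**
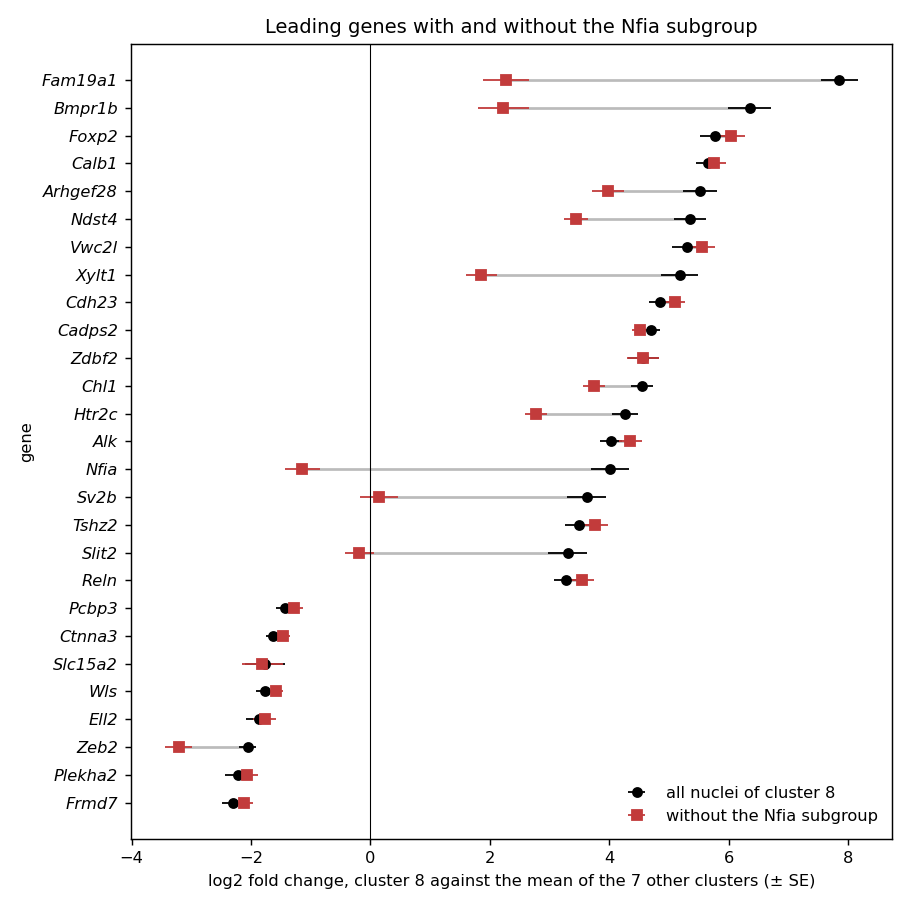
Log2 fold change (x axis, ± SE) of 27 genes, the 20 leading genes and 7 named in the text, in cluster 8 against the mean of 7 other inhibitory clusters, with all nuclei (black circles) and without the Nfia subgroup (red squares). Bars are the SE of the fit and not the spread between the mice within cluster 8. Fam19a1, Bmpr1b, Xylt1, Nfia, Sv2b and Slit2 shift to the left by over 3 log2 units, and Foxp2, Calb1, Vwc2l and Cdh23 hardly move.

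The leading lower genes, taken from called genes with at least 30 CPM and libraries apart from all others, were smaller in size. Frmd7 was at 38.7, 54.4 and 20.3 CPM in mice 1, 2 and 3, and the 21 other libraries held 95.6 to 246 CPM. Its log2 fold change was -2.30 ± 0.19 (SE). Plekha2 followed at -2.22, Zeb2, a zinc-finger repressor, at -2.06, Ell2 at -1.87, Wls, which escorts Wnt proteins to secretion, at -1.77, Slc15a2, a peptide transporter, at -1.76, Ctnna3 at -1.63 and Pcbp3 at -1.43. Zeb2 was at 1017 CPM in Nfia nuclei and its value without them was -3.21. Each of these 8 genes was lower with and without the Nfia nuclei.

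Set against each cluster in turn, 1617 genes were called against cluster 6, 1665 against cluster 12, 1685 against cluster 10, 1856 against cluster 7, 2083 against cluster 1, 2592 against cluster 3 and 2641 against cluster 0. These counts are no ranking of likeness: without mouse 1 they were 1186 against cluster 12, 1196 against cluster 10 and 1327 against cluster 6, and Pearson's r of mean log2 CPM across genes was highest with cluster 1 (0.93) and lowest with cluster 3 (0.90). Against clusters 0 and 3, 11.9% of tested genes were higher each and 5.98% and 5.6% lower, and against clusters 1 and 7, 8.78% and 7.67% were higher and 5.31% and 4.88% lower. Against cluster 6, 1015 genes (6.87% of those tested) were higher and 602 (4.07%) lower. Tyrp1 (0.899 against 88.7 CPM), Hgf, a growth factor (2.69 against 150.3 CPM), and Angpt1 (9.52 against 555 CPM) were the lowest in cluster 8. Against cluster 12, 997 genes (6.75%) were higher and 668 (4.52%) lower, among them Pax6, a regulator of dopaminergic periglomerular fate (11.9 against 321 CPM). Against cluster 10, 1013 (6.85%) were higher and 672 (4.55%) lower, with Car8 (0.171 against 38.3 CPM) and Ndnf (10.5 against 685 CPM) among the lowest. Against cluster 7, in which Calb2 is high, Pde5a was at 6.15 against 532 CPM and Zic2 at 1.30 against 83.2 CPM. Fam19a1 led the higher genes against each of the 7 clusters.

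The genes whose levels most resembled those of Calb1 over the 24 libraries were Fyb2 (Pearson's r of log2(CPM + 1) 0.89), Ptprz1 (0.89), Tshz2 (0.88), Zdbf2 (0.88) and Cadps2 (0.88). For Foxp2 they were Gm46102 (0.91), Alk (0.90), Kcnip4 (0.88), Cntnap5a (0.86) and Gm10684 (0.86). The libraries share mice and depth, and the values are descriptive. They are likeness between clusters and not between nuclei: Fyb2 was highest in Gpc5 nuclei, which held no Calb1 UMI, Cadps2 in Parm1 nuclei, and Alk in Nxph1 nuclei.

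The gene lists that follow hold 815 genes, of which 690 passed the filter on low counts. A rare gene can pass that filter through cluster 8 alone, so the shares are of tested members and are given as a description. With no filter 6.61% of 25630 genes were higher and 1.66% lower.

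Among forkhead factors 2 of 13 tested genes, of 23 in the list, were called higher (15.4%, against 8.11% of all genes) and none lower. They are the marker Foxp2 and Foxp4, and without the marker 1 of 12 (8.33%) is near the share of all genes. With no filter it was 2 of 20. Foxp4 was at 47.7, 47.0 and 45.2 CPM in mice 1, 2 and 3, with a log2 fold change of 4.35 ± 0.20 (SE). No library of another inhibitory cluster was near it (cluster 1 averaged 3.66 CPM). Foxp4 was highest in Ccdc141 nuclei (146 CPM) and then Chst9 nuclei (85.6 CPM). Foxp1, the third neuronal Foxp gene, was at 80.7 CPM against a mean of 88.1 CPM and was not called.

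Transcription factors of bulb interneurons moved both ways, 11 of 56 higher and 11 lower (19.6% each, against 8.11% and 2.72% of all genes), and 8 and 16 of 58 with the other clusters summed. Tshz2 was higher (3.50 ± 0.23), at 139, 293 and 245 CPM against 30.5 CPM in cluster 1, the highest other inhibitory cluster. In the series as a whole cluster 5 held 1754 CPM of it. Within cluster 8 the highest level of Tshz2 was in Hmcn1 nuclei (1259 CPM). These held 28.6% of its UMIs and Ccdc141 nuclei 29.6%, and mouse 1 has no Hmcn1 nuclei. Ets1 (3.25) and Zfhx4 (3.09) were higher too, the latter with 58.2% of its UMIs in Nfia nuclei. Pax6 was at 11.9, 19.9 and 4.00 CPM against a mean of 134 CPM (-2.93 ± 0.31). Sall3 (-2.33), Zic2 (-1.76) and Tox (-1.69) were lower as well, each of them high in 1 or a few other clusters, and Tox lost its call without clusters 10 and 12. Meis2, a homeobox gene of most bulb interneurons, was at 2561 CPM against a mean of 3422 CPM and was not called, nor was Pbx3. Without the Nfia nuclei 7 factors were higher and 13 lower.

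Of the calcium-binding proteins, 6 of 20 were higher (30% against 8.11% of all genes) and 3 lower (15% against 2.72%). The counts were 6 and 6 with the other clusters summed, and without the marker Calb1 5 of 19 (26.3%) were higher. Beside Calb1, Hpcal1, a visinin-like sensor, was at 28.3, 31.4 and 30.3 CPM (4.82 ± 0.25). Any other inhibitory cluster held at most 2.62 CPM as a mean, and Hpcal1 was highest in Ccdc141 nuclei. Kcnip4 was at 3533, 2685 and 5200.5 CPM (3.38 ± 0.17), with 38.2% of its UMIs in Nfia nuclei. Cabp1 was at 84.4 CPM (2.29). Scgn (-1.17), Necab2 (-1.13) and Necab3 (-1.04) were lower. Of these only Scgn was called without mouse 1, and Scgn was called neither without mouse 2 nor without mouse 3.

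Receptors for serotonin were called higher in 6 of 11 tested cases (54.5%, against 8.11% of all genes), the marker Htr2c among them. They were lower in 1 (9.09%, against 2.72%), with a median log2 fold change of 1.17 against -0.01 over all tested genes. Without the marker 5 of 10 (50%) were higher. Most were rare: Htr5b was at 6.70 CPM (4.34), Htr1b at 4.24 (2.81) and Htr1a at 3.26 CPM (2.04). Htr1a was at 38.5 CPM in Ccdc141 nuclei, and Htr5b at 26.2 CPM in Nectin3 nuclei. Htr1f was at 103, 147 and 77.0 CPM against a mean of 646 CPM and 1764 CPM in cluster 7 (-1.95 ± 0.26). The higher and lower counts were 6 and 1 without the Nfia nuclei too, 3 and 1 of 9 tested without mouse 2, 4 and 1 without mouse 1 or mouse 3, and 5 and 1 of 14 (35.7% higher) with no filter on low counts. Of 26 genes of Gq signaling, 7 were higher (26.9%) and 2 lower (7.69%, against 2.72% of all genes). The counts were 4 and 2 without the Nfia nuclei, 7 and 0 without mouse 2, and 5 and 4 of 28 with the other clusters summed. Rgs8, a regulator of G protein signaling, was at 67.6, 47.4 and 36.9 CPM (3.91 ± 0.22) and was highest in Parm1 nuclei. Trpc7 (2.44) had 70.5% of its UMIs in Nfia nuclei and was not called without them. Prkca (-1.01) and Dgkb (-1.12) were lower, but neither without mouse 2 (-0.87 and -0.94), and Prkca not without mouse 1 (-0.97), without TMM factors (-0.93), with DESeq2 (-0.99) or without clusters 10 and 12 (-0.87) either.

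Of 21 acetylcholine receptors 10 passed the filter on low counts, and of these 5 were higher (50%, against 8.11% of all genes) and 1 lower (10%, against 2.72%), and 5 and 0 without mouse 1. With no filter the higher share fell to 25% (5 of 20). Nicotinic subunits were among the higher genes. Chrna2 was at 19.4, 7.84 and 3.15 CPM in mice 1, 2 and 3 (5.41 ± 0.53), Chrna3 at 12.9, 6.55 and 9.73 CPM (3.81) and Chrna5 at 5.46, 3.21 and 4.29 CPM (3.78), and all 3 were highest in Gpc5 nuclei. Mouse 1, the highest for each, also had the largest share of Gpc5 nuclei (19.3%, against 8.94% and 8.05%). Chrna7 was at 68.0, 98.3 and 107 CPM (2.04 ± 0.13) and was highest in Nectin3 nuclei (426 CPM). Chrm2, a muscarinic receptor, was at 219 CPM against a mean of 609 CPM (-1.21), and was not called lower without the Nfia nuclei (-0.93) or without mouse 1 (-0.99). For noradrenaline, dopamine and histamine receptors 4 of 11 tested, of 17 in the list, were higher (36.4%, against 8.11% of all genes) and 1 lower (9.09%, against 2.72%), and 6 and 0 without mouse 3. Drd3 was at 11.4, 3.60 and 3.72 CPM (3.47), and Adra2a, Drd2 and Adrb1, also called higher, were at or below 13.1 CPM. Drd2 was higher than the mean of log levels only, since cluster 6 held 27.2 CPM of it against 2.81 CPM in cluster 8, and it lost its call without mouse 2 and with the other clusters summed.

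Receptors for GABA, glycine and glutamate were called higher in a larger share than the 8.11% of all genes, a background not matched for use in neurons. For GABA receptors and their partners it was 8 of 19 tested, of 25 in the list (42.1%), with 1 lower (5.26%, against 2.72% of all genes), none lower without mouse 1, and 8 of 25 higher with no filter. Kctd16, an auxiliary subunit of GABA-B receptors, was at 611, 485 and 933 CPM (3.43 ± 0.13), and Gabrg3 at 1300.4, 1044 and 1534 CPM (2.49 ± 0.12) with its highest level in Nectin3 nuclei (4428 CPM). Gabrd, a subunit of extrasynaptic receptors, was lower (-1.13), but not without mouse 1 (-0.97) or without possible doublets (-0.92). For glycine receptors 3 of 5 were higher, 1 of 5 without possible doublets and 2 of 6 with no filter on low counts, with Glra3 at 10.4 CPM (2.16), Glra2 at 25.5 CPM (1.21) and Glra1 at 3.78 CPM (1.09). Each lost its call under some setting: Glra3 without possible doublets (0.71), Glra2 with the other clusters summed, and Glra1 without mouse 1, without mouse 2, without possible doublets and with no filter. Of 31 ionotropic glutamate receptor genes 8 were higher (25.8%, against 8.11% of all genes) and 1 lower (3.23%, against 2.72%). The counts were 8 and 6 without the Nfia nuclei, 8 and 0 without mouse 1, and 6 and 3 with the other clusters summed. Grin3a was at 88.4, 86.6 and 98.7 CPM against 30.1 CPM in the highest other inhibitory cluster (3.12 ± 0.15). Gria1, Gria2 and Grik2, the most abundant members not called, lay between 1143 and 1399 CPM. Among the 7 metabotropic receptors Grm3 (3.55 ± 0.15) and Grm7 (2.04 ± 0.09) were higher, both highest in Nectin3 nuclei, and Grm4 (-1.21) and Grm2 (fell by 1.003) were called lower with all nuclei and not without the Nfia nuclei, Grm4 also not without clusters 10 and 12 (-0.87) and Grm2 not without mouse 2 (-0.94), without mouse 3 (-0.76), without TMM factors (-0.91), with DESeq2 (-0.96) or without possible doublets (-0.65).

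Gad1 (-0.29), Gad2 (-0.10) and Slc32a1 (-0.36) were not called against the mean of the other clusters, which differed among themselves. Gad1 ran from 318 CPM in cluster 10 to 1189 CPM in cluster 3, and at 554 CPM in cluster 8 was called lower against clusters 0 (-1.03) and 3 (-1.27). Gad2 ran from 104 CPM in cluster 10 to 798 CPM in cluster 6, and at 273 CPM in cluster 8 was called higher against the former (1.20) and lower against the latter (-1.56). Slc12a2, a chloride importer, was called lower than the mean (-1.01), but not without mouse 1 (-0.95), without mouse 3 (-0.87), without TMM factors (-0.92) or with DESeq2. Of 8 genes of dopamine synthesis and transport 1 was lower (12.5%, against 2.72% of all genes) and none higher. It was Th (-1.60 ± 0.31), with the highest other inhibitory cluster, cluster 6, at 222 CPM. The lower count was 2 without mouse 1 and 4 with the other clusters summed, and without mouse 2 Slc18a2 was called higher (1.17).

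Of the 44 neuropeptide genes in the files 27 were tested, and 4 were higher (14.8%, against 8.11% of all genes) and 1 lower (3.70%, against 2.72%). The counts were 3 and 0 without mouse 1, 4 and 2 without mouse 2, 5 and 4 without clusters 10 and 12, and 6 and 6 of 28 with the other clusters summed. Pthlh was at 6.65 CPM (3.34) and highest in Chst9 nuclei. Sst was at 60.1, 23.6 and 1.14 CPM in mice 1, 2 and 3 (2.73 ± 0.53), so that mouse 3 fell within the range of the other clusters. Vgf (1.98) and Igf1 (1.71) were higher and Penk, enkephalin, lower (-1.58). Sst (1.67) and Penk (-1.53) were not called without mouse 1. Of their 46 receptors 31 were tested, and 12 were higher (38.7%) and 4 lower (12.9%, against 2.72% of all genes), 8 and 3 without the Nfia nuclei, 11 and 2 without mouse 1, and 6 and 9 with the other clusters summed. Hcrtr2, an orexin receptor, was at 12.9, 7.71 and 21.5 CPM (4.29) and highest in Nxph1 nuclei, and Qrfpr was at 29.3, 19.5 and 21.2 CPM (3.85). Cckbr, a cholecystokinin receptor, was at 6.44 CPM against a mean of 35.5 CPM (-2.29), and Vipr2 (-1.83), Oprd1 (-1.21) and Crhr1 (-1.18) were lower, the last 2 not without mouse 1.

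Potassium channel genes moved both ways, 9 of 62 higher (14.5%, against 8.11% of all genes) and 8 lower (12.9%, against 2.72%), and 9 and 14 without the Nfia nuclei. Kcng1, a modulatory subunit, was at 14.4, 9.77 and 10.9 CPM against at most 0.807 CPM as a mean of any other inhibitory cluster (4.10). Kcnb2 was at 744, 1567 and 665 CPM against a mean of 3399 CPM (-1.49 ± 0.31), and mouse 2, the highest, also had the most Cpa6 nuclei, in which Kcnb2 was at 3699.6 CPM. Kcna4 (-1.46) was lower. Of 33 sodium, calcium and HCN channel genes 7 were higher (21.2%, against 8.11% of all genes) and 2 lower (6.06%, against 2.72%). The counts were 6 and 4 without mouse 3, 6 and 5 without the Nfia nuclei, and 4 and 7 with the other clusters summed, which turned the balance. Called with all nuclei were Scn9a at 35.4 CPM (2.21), Cacnb2 at 887 CPM (2.02) and Cacna1c, an L-type calcium channel, at 516 CPM against a mean of 1369 CPM (-1.28).

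Genes of vesicle release were called higher in 15 of 46 cases (32.6%, against 8.11% of all genes) and lower in 1 (2.17%, against 2.72%), and 12 and 2 without mouse 3. Cadps2 was at 626, 286 and 383 CPM (4.71 ± 0.14), Rph3a at 16.4, 12.6 and 39.2 CPM (4.10), Unc13c at 226, 378 and 307 CPM (3.93) and Sv2b at 88.9, 21.2 and 253 CPM (3.62). The last had 89.5% of its UMIs in Nfia nuclei, and Unc13c 0.269%, with its highest level in Ccdc141 nuclei. Syt10 was lower (-2.09 ± 0.33), at 30.1 CPM against 539 CPM in cluster 3. Syt1, Snap25 and Cadps were not called.

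Surface molecules were called higher more often than the 8.11% of all genes. It was 14 of 32 cadherins (43.8%) with 3 lower (13 and 1 without mouse 2), 22 of 63 axon guidance genes (34.9%) with 4 lower and 23 of 71 synaptic adhesion genes (32.4%) with 3 lower (22 and 6 without mouse 3). Without the Nfia nuclei the counts were 12 and 4 for cadherins, 17 and 8 for axon guidance and 21 and 8 for synaptic adhesion, and without possible doublets 12 and 5, 17 and 7, and 20 and 8. With the other clusters summed 22 and 8 axon guidance genes were called. The lower shares were 9.38%, 6.35% and 4.23%, against 2.72% of all genes. Cdh23, a cadherin of hair cell tip links, was at 156, 87.1 and 57.8 CPM against 6.05 CPM in the highest other inhibitory cluster. In the series as a whole cluster 20 held 156 CPM of it. Within cluster 8 Cdh23 was highest in Gpc3 nuclei. Cdh11 was at 361, 244 and 229 CPM (3.19 ± 0.13). Unc5c, a netrin receptor, was at 464, 201 and 919 CPM (4.27 ± 0.21) with 52.9% of its UMIs in Nfia nuclei, and was still called without them (3.29). Ephb1 was at 112, 96.6 and 79.8 CPM (3.42), and Sema3e (-1.42) and Ntn4 (-2.11) were lower. Slitrk6 was at 3.97, 11.7 and 11.4 CPM (6.00 ± 0.44), with its highest level in Hmcn1 nuclei, which mouse 1 lacked. Cntn5 was at 4222, 3670 and 3734 CPM (3.34 ± 0.19) and Cbln1, a synaptic organizer, at 25.3 CPM (3.26). Cntnap3 was at 18.5 CPM against 480 CPM in cluster 10 (-2.09).

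Growth factors and their receptors gave 17 of 60 higher (28.3%, against 8.11% of all genes) and 3 lower (5% against 2.72%), 13 and 1 without mouse 1, and 13 and 10 with the other clusters summed. After Bmpr1b came Alk at 256, 210 and 287 CPM (4.03 ± 0.19) and Reln at 366, 378 and 361 CPM (3.28 ± 0.20), the latter against 275 CPM in cluster 10 and 2276 CPM in cluster 13. Fam19a2, a relative of Fam19a1, was at 560, 500.1 and 510.1 CPM (2.50 ± 0.17), close to the 497 CPM of cluster 7, and was steady across the mice where Fam19a1 was not. Of the neurexin genes, Nrxn2 (-0.23) and Nrxn3 (-0.38) were not called.

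Activity-induced genes had 5 of 21 lower calls (23.8%, against 2.72% of all genes) and 1 higher, with a median log2 fold change of -0.81. The lower calls numbered 3 without mouse 2 and 8 with the mouse as replicate block. Egr1 was at 13.9, 64.6 and 32.3 CPM against a mean of 122 CPM and 201 CPM in cluster 0 (-1.58 ± 0.36). Egr3 (-1.38), Egr4 (-1.16), Arc (-1.12) and Junb were lower. Of these, Arc lost its call without any 1 of the mice and with DESeq2, Junb without mouse 1 (-0.74), without TMM factors (-0.93), without possible doublets (-0.94) and without clusters 10 and 12 (-0.97), and Egr4 without mouse 2. Bdnf, with 56.8% of its UMIs in Ccdc141 nuclei, was higher (1.49) than the mean of log levels only: cluster 3 held 86.6 CPM of it against 55.5 CPM in cluster 8, and it was not called with the other clusters summed (0.88). The counts were 5 and 1 without the Nfia nuclei too. Of 15 genes of immature neurons 1 was higher (6.67%, against 8.11% of all genes) and 1 lower (6.67%, against 2.72%), and 2 were lower without mouse 2 and with the other clusters summed. Stmn2 was higher (1.16), but not without clusters 10 and 12 (0.91), and Dcx lower (-1.30 ± 0.17), at 165 CPM against a mean of 399 CPM.

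**Figure D5:**
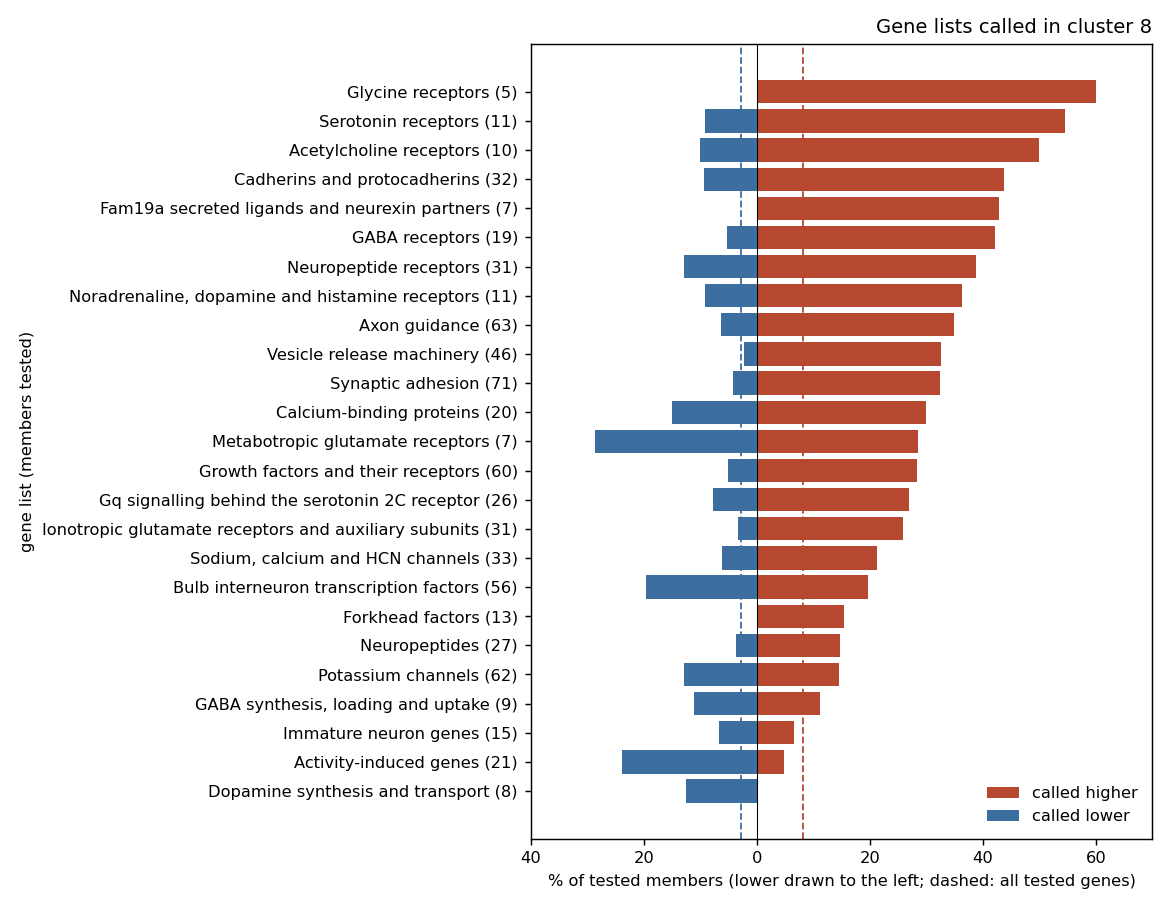
Share (%) of the tested members of each gene list called higher (right) or lower (left) in cluster 8 against the mean of the 7 other inhibitory clusters, with the number tested in brackets and dashed lines at the shares over all tested genes (8.11% higher, 2.72% lower). Receptor and surface molecule lists lie to the right of the dashed line, and activity-induced genes reach 23.8% on the lower side.

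Of the inhibitory nuclei, cluster 8 took 6.05% in mouse 1, with an exact 95% interval of 5.30 to 6.87. It took 6.07% (5.69 to 6.47) of those of mouse 2 and 9.67% (8.58 to 10.8) of those of mouse 3, a mean of 7.27% ± 2.08 (SD, n = 3). Mouse 3 was above the others beyond counting error, and it was also the mouse richest in Nfia nuclei. The median nucleus of cluster 8 held 6779, 7105 and 8982 UMIs in mice 1, 2 and 3. Against the 7 other clusters the log2 ratio of the medians was 0.01 ± 0.07 (SD, n = 3; exact paired permutation test, two-sided, p = 0.75, where 3 pairs cannot give less than 0.25). The 3 libraries summed to 2013251, 7782222 and 3495646 UMIs, so that mouse 1 gives the least precise levels.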

How the data were processed

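Single-nucleus RNA was measured in 3 mice of 1 group. The deposited matrices hold UMI counts for each gene in each barcode, made on GRCm38 by the authors without normalization (Cell Ranger, version 3.0.2 in the file headers). Whether intronic reads were counted is not given in the sources used here. A deposited table lists the retained nuclei (at least 1000 genes, at most 5% mitochondrial UMIs) with the authors' clusters, formed in Seurat after merging the mice, and the deposited percent of mitochondrial UMIs. Its plotting coordinates were not used. Of 7718, 29829 and 6876 barcodes, 5845, 21105 and 4753 were retained in mice 1, 2 and 3. UMI totals computed here equalled the listed ones for 100% of nuclei. Mice shared 39, 8 and 35 retained barcodes by pair, of which 1 was in cluster 8 in both.

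Counts were summed per mouse and cluster (24 libraries), filtered with filterByExpr, scaled by TMM and fitted with edgeR 4.0.16 in R 4.3.3 (quasi-likelihood test, no covariate), with Benjamini-Hochberg adjustment over 14780 genes. CPM values carry no TMM factors. The study tested single nuclei instead. The fit was tested on simulated data with independent libraries, without an effect of the mouse and without clusters formed from the same counts. That test does not cover these features of the real data. Libraries of the same mouse come from 1 animal, so the mouse pairs them (mean r of deviations 0.145 over 84 pairs, and -0.071 over 168 pairs of different mice). A fit with the mouse as replicate block was among the alternatives.

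Subgroups were formed with scanpy 1.11.5 (2000 variable genes without 71 marker genes, 20 principal components, 15 neighbors, Leiden resolution 0.4), after the data had been seen, and named by the gene with the highest ratio to the mean of the other subgroups with 20 CPM added. No doublet caller was run. As an alternative, cluster 8 nuclei with at least 2 UMIs of projection neuron markers or in the top 5% of UMIs were left out (37, 168 and 77). Named genes are the 4 markers, the 12 highest and 8 lowest called genes with at least 30 CPM and libraries apart from all others, called and abundant members of each list, and genes of like pattern. A few leading genes of subgroups were named after their values were seen. The members, the markers and the lists were chosen with earlier results of these data known. Results for a few genes are not reported here.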

Additional observations from a re-analysis of the deposited data

How the results depend on the processing

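Of 2047 log2 fold changes of 171 named genes under 12 other settings, 1936 kept their direction and their side of the threshold. The counts of 1198 higher and 402 lower genes came to 1093 to 1143 and 274 to 372 when 1 mouse was left out, 1229 and 384 with DESeq2, and 1022 and 489 without possible doublets. With the other clusters summed per mouse, 722 genes were lower, a setting in which large clusters weigh more. Tyrp1 (-2.75), Hgf (-2.66) and Slit3 (-0.0102), higher against the mean of log levels, turned lower there. With the mouse as replicate block the counts were 1207 and 438, so the pairing moved neither by over 1.5 times. Leaving out the Nfia subgroup, a setting chosen after seeing the data, turned Nfia (-1.14), Abi3bp (-1.31), Ndst3 (-0.76), Slit2 (-0.18) and Slit3 (-1.38) lower. Without possible doublets, which were picked by projection neuron markers or depth and include 60 of the 74 Nfia nuclei, so that this setting overlaps with the one before, Slc17a7 (-1.03), Slc17a6 (-1.07) and Slit3 (-0.74) turned lower, and Slc17a7 was at 0.49 without mouse 3. The subgroup held 74 nuclei at Leiden resolutions of 0.1, 0.2 and 0.8 and 73 with the markers among the features.

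The share of cluster 8 was 4.48% of all nuclei in place of inhibitory ones. The log2 ratio of median depth was -0.023 without mouse 3 and 0.0505 without mouse 2, and 0.29 from mean UMIs. Thinned to 3000 UMIs, 15.2% of nuclei held Calb1 in place of 20.4%. Fam19a1 was found in 5.92% of nuclei without mouse 3 and 12.8% with it. The 3 mice of 1 group, 1 library each, limit precision, and mouse 1 gave only 223 nuclei.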
